A study of Drosophila melanogaster with 18 samples.

Results

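Eip55E, Eip71CD, Eip63E, Eip63F-1 and Eip93F are 5 Drosophila genes named for induction by ecdysone, the insect moulting steroid. They were taken from the expression table by gene name, 5 of the 15602 genes it lists. The table was deposited for a study that asked what 20-hydroxyecdysone (20E, the active form of the hormone) and insulin change in wing imaginal discs, the pouches of larval epithelium from which adult wings develop. Poly(A) RNA was sequenced from discs of wild-type OregonR larvae at 96 h after egg laying, in 6 groups of 3 libraries. The groups were 20E for 9 h and for 4 h at 20 nM, bovine insulin for 9 h and for 4 h at 5 µg/ml, culture without hormone for 4 h, and uncultured discs frozen soon after dissection. The culture medium, Grace's, held 5% serum from fetal calves, so the discs without added hormone also had serum. There is no hormone-free culture at 9 h, and at that time a change made by 20E or insulin cannot be told apart from one made by longer culture.

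Ecdysone acts through a nuclear receptor, the heterodimer of EcR and Usp, which switches on a small set of early transcription factor genes. These in turn activate or repress later genes, so that one steroid gives different responses in different tissues and at different stages. Eip55E and Eip71CD were first known as proteins that the hormone induces in cultured Drosophila cells. Eip63E, Eip63F-1 and Eip93F lie at chromosome puffs that swell under the hormone in the salivary gland. The 5 products have unlike functions: a pair of enzymes of sulphur amino acid chemistry, a protein kinase, a calcium-binding protein and a transcription factor.

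Eip55E (FBgn0000566, named Cth in the current annotation) encodes cystathionine gamma-lyase, the last enzyme of the transsulfuration route from methionine to cysteine. It lies on the plus strand of chromosome 2R, 18627918 to 18629395. Eip71CD (FBgn0000565, now MsrA) encodes methionine sulfoxide reductase A, which repairs oxidised methionine, and lies on the plus strand of chromosome 3L, 15511052 to 15513202. Eip63E (FBgn0005640) encodes a cyclin-dependent kinase of the PFTAIRE kind that works with cyclin Y. It is the longest of the 5 genes, at 3515751 to 3610521 on the plus strand of chromosome 3L, with 14 annotated transcripts. Eip63F-1 (FBgn0004910), an EF-hand protein related to calmodulin, lies on the minus strand of chromosome 3L, 3909973 to 3935617. Eip93F (FBgn0264490) encodes E93, the transcription factor that directs adult development at metamorphosis, and lies on the plus strand of chromosome 3R, 21949114 to 22014539. All positions are those of Ensembl release 115 on assembly BDGP6.54. The submitters' processing notes name build BDGP5, so the positions describe the genes and not the authors' gene models.

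The map of exons and neighbouring genes shows where reads could be shared. Eip63F-2, a non-coding RNA gene on the other strand, overlaps the start of Eip63F-1 over 900 bases, of which 132 are exonic in both. It was listed at no more than 0.257 FPKM (fragments scaled by the transcript's length and the library's depth, the authors' unit) in any library. The annotation also puts snRNA:U7 on the same strand and a pair of antisense non-coding RNA genes inside introns of Eip63E, with 0 exonic bases in common. The libraries were strand-specific, per the labels' protocols, but the counting setting is not given in the sources used here. The gene gdl ends 4 bases before Eip71CD begins, on the same strand.

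**Figure D1:**
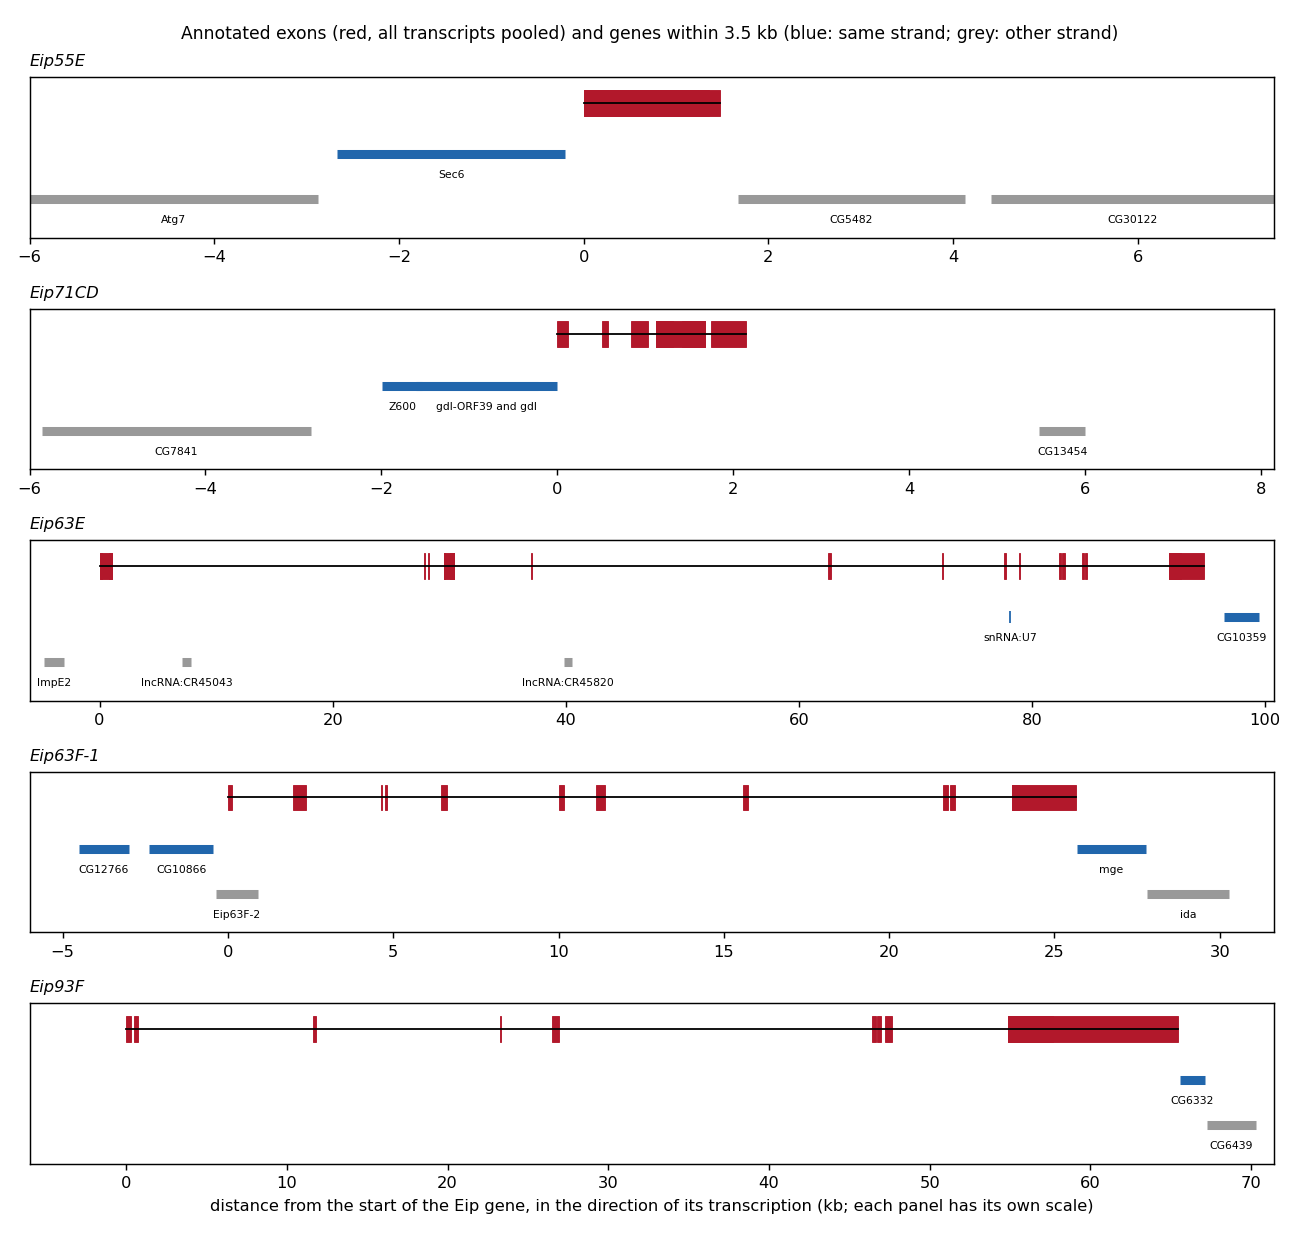
Annotated exons of the 5 Eip genes (red, all transcripts pooled) and other genes within 3.5 kb, against the distance in kb from the start of each gene, read in its own direction. Blue bars are genes on the same strand and grey bars genes on the other; a thin tick marks a gene too short to draw to scale. Exons of Eip63F-2 share 132 bases with those of Eip63F-1, and no other gene drawn overlaps exons of the 5.

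Depth was similar in all groups: regular steps in the low FPKM values gave an estimated 28.2 to 37.8 M fragments per library. All 9 wing disc markers exceeded 1 FPKM (nub, vg, sd, ap, en, hh, ci, wg and dpp), with sums of 511 to 655 FPKM per library. The sums were 619 to 655 FPKM in 20E at 9 h and 584 to 612 FPKM in 20E at 4 h. In insulin they were lower, 522 to 560 FPKM at 9 h and 511 to 539 FPKM at 4 h. They were 511 to 524 FPKM without hormone and 514 to 552 FPKM in uncultured discs. All 5 markers of the adepithelial myoblasts, which lie on the disc, were also present. Their sums were 78.8 to 83.2 FPKM in 20E at 9 h and 56.5 to 75.1 FPKM in 20E at 4 h. In insulin they were 76.1 to 82.8 FPKM at 9 h and 53.6 to 62.4 FPKM at 4 h. They were 67.8 to 76.3 FPKM without hormone and 64.2 to 70.0 FPKM in uncultured discs. The salivary gland markers were under 1 FPKM in every library, 2 of the 8 (Sgs5 and ng1) at 0 in all. Of the fat body list, 1 of 7 (Lsp1gamma, at most 1.02 FPKM) reached 1 FPKM. Of the haemocyte list, Hml, NimC1, He, Pxn and srp stayed under 1 FPKM throughout. The rest of that list, crq, vkg and Cg25C, ranged over 18.3 to 25.4, 7.15 to 38.6 and 13.8 to 69.5 FPKM. They carried nearly all of the list's sum, so that sum is no measure of haemocyte content. The sum of the list's 8 genes was 42.8 to 49.2 FPKM in 20E at 9 h and 53.7 to 58.9 FPKM in 20E at 4 h. It was 119 to 130 FPKM over the insulin libraries, 96.3 to 114 FPKM without hormone and 97.1 to 106 FPKM in uncultured discs. All 5 tracheal genes exceeded 1 FPKM, with sums of 401 to 469 FPKM in 20E, 513 to 748 FPKM in insulin, 712 to 784 FPKM without hormone and 621 to 657 FPKM in uncultured discs. Gut protease transcripts marked single libraries: the gut list summed to 12078 FPKM in uncultured replicate 2, 860.2 FPKM in no hormone replicate 1, and 251 and 150 FPKM in insulin at 4 h replicates 2 and 3. It was at most 43.0 FPKM elsewhere. The part of these other transcripts in the results below was not tested. Changes of the tested Eip genes, and counts over all genes, were also computed without each library in turn. They were computed too without uncultured replicate 2 and no hormone replicate 1 together. Insulin at 4 h replicates 2 and 3 were not left out together, and myoblast and tracheal transcripts were in every library. List genes, neighbouring genes and correlations were not recomputed.

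The 5 genes differed widely in level. Over the 18 libraries Eip71CD averaged 71.9 FPKM, Eip55E 48.0 FPKM and Eip63E 33.3 FPKM, so that 9.1%, 14.2% and 20.8% of the listed genes had a higher mean. Eip63F-1 averaged 1.41 FPKM, with 50.6% of genes above it, and was at 1 FPKM or more in 10 of 18 libraries. Eip93F averaged 0.0475 FPKM and never reached 1 FPKM. Tests covered the 8524 genes that reached 1 FPKM in 3 or more libraries. That filter kept 4 of the 5 genes and left out Eip93F. Changes below are differences of means of log2(FPKM + 1), a scale that understates changes of genes at low levels such as Eip63F-1. A gene is said to have changed where its limma p, adjusted over all 8524 genes, was under 0.05. At 3 libraries a group the smallest p an exact permutation test of 1 gene can give is 0.1, so these p-values rest on the spread that limma shares across genes. In whole discs, fewer cells of one type and less RNA per cell cannot be told apart.

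**Figure D2:**
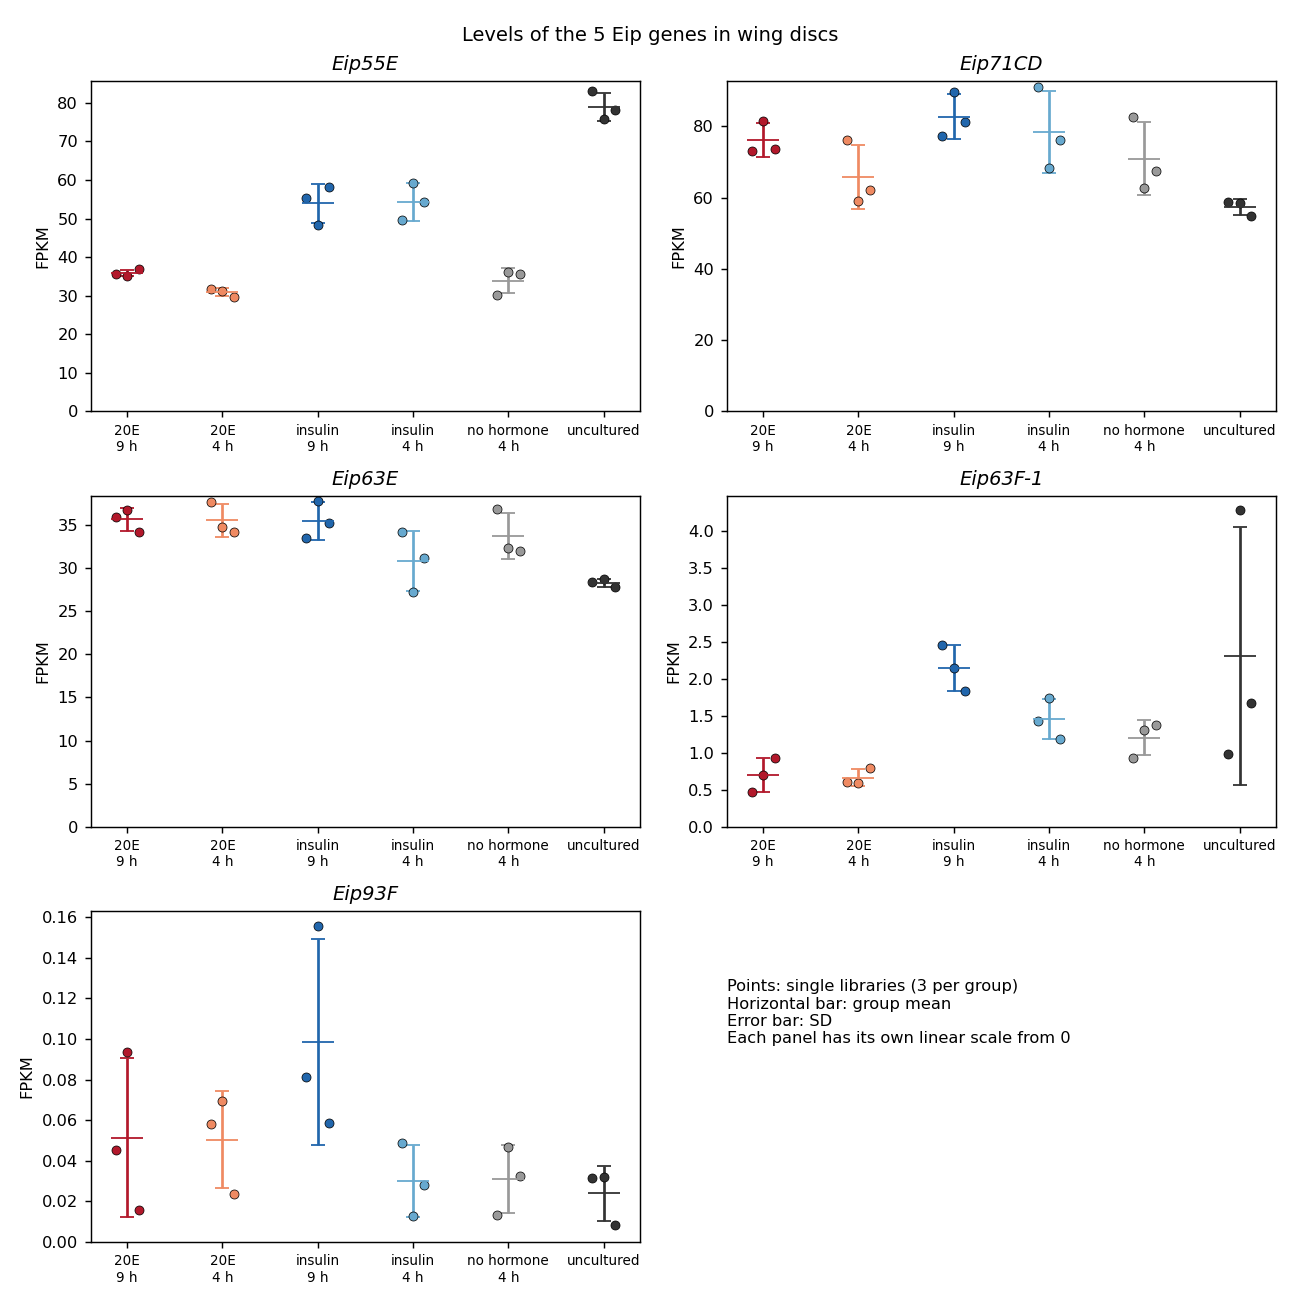
FPKM of each Eip gene in the 18 libraries, by group; points are libraries, horizontal bars group means and error bars the SD of 3 libraries, each panel on its own linear scale from 0. Eip55E stands at 75.7 to 83.0 FPKM in uncultured discs and below that in all cultures, Eip71CD and Eip63E differ little between groups, and Eip93F stays at or under 0.156 FPKM.

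The first question was whether 20E raised these genes in the discs. At 4 h none of the 4 tested genes changed in either direction against culture without hormone (limma, 0 of 4, also 0 of 4 at an unadjusted p under 0.05). Of all tested genes 30.7% changed in this comparison, 15.7% upward and 15.0% downward. Other genes named Eip did respond in the same libraries: Eip74EF rose by 1.48 ± 0.10 and Eip75B by 3.95 ± 0.18 on the log2 scale (SE). Eip78C stood at 1.72 ± 0.19 (SE), but it met the filter of 1 FPKM only because of the 20E libraries. It was at 2.14 to 3.26 FPKM in 20E at 4 h and 0.121 to 0.178 FPKM without hormone, so it adds no support. These Eip genes are the hormone's early transcription factor genes, an ETS protein and 2 nuclear receptors.

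For Eip55E the difference between 20E and no hormone was -0.13 (95% interval -0.30 to 0.04, adjusted p = 0.26). For Eip71CD it was -0.11 (-0.35 to 0.14, adjusted p = 0.541), and for Eip63E 0.08 (-0.08 to 0.23, adjusted p = 0.477). These intervals leave room for a rise of at most 0.23 on the log2 scale in any of the 3 genes. Eip63F-1 is the exception in precision, with -0.40 (-0.95 to 0.14, adjusted p = 0.264). Its libraries did not overlap: 0.606, 0.589 and 0.789 FPKM in 20E at 4 h, against 0.933, 1.30 and 1.38 FPKM without hormone. Over all tested genes 43.0% had ranges that did not overlap in this comparison. The result for Eip63F-1 passed the threshold as a fall when the libraries with the most gut transcripts, no hormone replicate 1 and uncultured replicate 2, were left out (-0.50, adjusted p = 0.0408). Eip55E passed it as a fall with array weights (-0.20, adjusted p = 0.0195). Over the settings that kept 3 libraries a group or left out this pair, adjusted p ran to 0.351 for each of these 2 genes. Eip71CD passed as a fall, at the same -0.11, with the replicate number as a block among the 4 h cultures (adjusted p = 0.0264), a fit described with that gene. Under no setting run did any of the 4 genes pass as a rise.

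**Figure D3:**
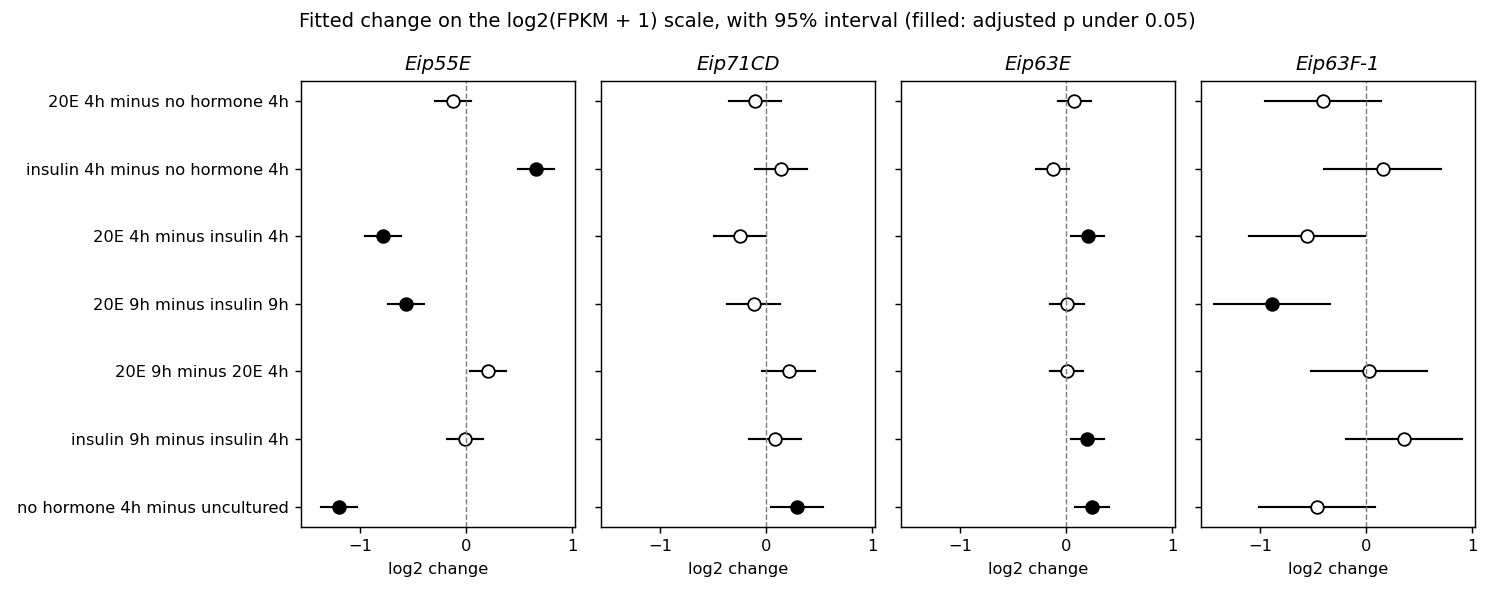
Fitted change of the 4 tested Eip genes on the log2(FPKM + 1) scale in 7 comparisons; points are estimates, lines 95% intervals, and filled points have an adjusted p under 0.05. The top row, 20E at 4 h minus no hormone, has no filled point, and Eip55E has the filled point farthest from 0, at -1.20 for culture without hormone minus uncultured discs.

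Of the 4 tested genes Eip55E had the largest change on the log2 scale both in culture without hormone against uncultured discs and in insulin at 4 h against no hormone. It stood at 35.6, 35.2 and 36.9 FPKM in 20E at 9 h and at 31.8, 31.3 and 29.7 FPKM in 20E at 4 h. In insulin it stood at 55.3, 48.2 and 58.2 FPKM at 9 h and at 49.5, 59.1 and 54.2 FPKM at 4 h. Without hormone it stood at 30.1, 36.0 and 35.7 FPKM, and in uncultured discs at 83.0, 75.7 and 78.1 FPKM. The libraries thus formed 3 levels: uncultured discs above all others, the 6 insulin libraries in the middle, and 20E and hormone-free cultures below. In descending order the group means ran uncultured, insulin at 4 h, insulin at 9 h, 20E at 9 h, no hormone, 20E at 4 h. Neighbours in that order overlapped in range except uncultured with insulin at 4 h, and insulin at 9 h with 20E at 9 h.

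Against uncultured discs, Eip55E fell to 33.9 ± 3.36 FPKM without hormone, against 78.9 ± 3.71 FPKM in uncultured discs (SD, n = 3 each), a ratio of 0.430. The log2 change was -1.20 ± 0.08 (SE, limma adjusted p = 4.32e-09), and 8.5% of tested genes had a larger change in size. The libraries did not overlap. In this comparison 70.6% of all genes changed, 35.1% upward and 35.5% downward, and 73.2% had ranges that did not overlap, so passing the threshold is common here. Insulin at 4 h raised Eip55E to 54.3 ± 4.81 FPKM, against 33.9 ± 3.36 FPKM without hormone (SD, n = 3 each). That rise of 0.66 ± 0.08 (SE, adjusted p = 5.1e-06) was the only change among the 4 genes in insulin at 4 h in the fit of all 18 libraries. There 57.9% of all genes changed, 30.3% upward and 27.6% downward, and 64.4% had ranges that did not overlap, as Eip55E did. With insulin it was still below uncultured discs, by -0.53 ± 0.08 at 4 h (SE, adjusted p = 6.62e-05) and -0.54 ± 0.08 at 9 h (SE, adjusted p = 2.43e-05).

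The direct test of 20E against insulin gave Eip55E as lower in 20E at both times. At 4 h the difference was -0.79 ± 0.08 (SE, adjusted p = 1.09e-06) and at 9 h -0.57 ± 0.08 (SE, adjusted p = 3.22e-05), with 3 of 3 libraries in 20E below 3 of 3 in insulin at each time, as held for 63.1% of all genes at 4 h and 58.0% at 9 h in one direction or the other. From 4 h to 9 h in 20E its log2 change was 0.21 ± 0.08 (SE, adjusted p = 0.0715), with libraries at 35.2 to 36.9 FPKM at 9 h, all above the 29.7 to 31.8 FPKM at 4 h (37.6% of all genes had ranges apart). That change passed the threshold in other settings, namely when only these groups were fitted (adjusted p = 0.0314), with array weights, without both libraries with gut transcripts (adjusted p = 0.0469), and without insulin at 9 h replicate 2 (adjusted p = 0.0466) or no hormone replicate 1 (adjusted p = 0.0421). Over all the settings that kept 3 libraries a group or left out the pair with gut transcripts, it ranged from 0.00301 to 0.105. In insulin the change with time was -0.01 ± 0.08 (SE, adjusted p = 0.928).

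The other listed genes of methionine and cysteine metabolism were read beside Eip55E. Of 9 list entries 8 were matched in the table, and 5 besides Eip55E were tested. In insulin at 4 h against no hormone 4 of these 5 rose and none fell (median 0.44, against 0.01 over all tested genes, of which 57.9% changed). They were Cbs, the cystathionine beta-synthase that makes the substrate of Eip55E (0.75 ± 0.12), Sam-S, the S-adenosylmethionine synthetase (0.44 ± 0.07), Ahcy13, the adenosylhomocysteinase (0.41 ± 0.07), and Ahcy89E, a gene of the same family (1.60 ± 0.17, SE). Ahcy89E was low, at 0.214 to 0.563 FPKM without hormone and 2.53 to 4.26 FPKM in insulin at 4 h. CG10623, a predicted homocysteine methyltransferase, stood at -0.23 ± 0.10 (SE, adjusted p = 0.0663).

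With culture alone Cbs fell by 1.19 ± 0.12, close in size to Eip55E, Ahcy13 fell by 0.97 ± 0.07 and Ahcy89E fell by 1.02 ± 0.17, whereas Sam-S rose by 0.22 ± 0.07 and CG10623 by 0.39 ± 0.10 (SE). In 20E at 4 h against no hormone, 2 of the 5 changed (30.7% of all genes did): 1 rose, Cbs by 0.39 ± 0.12 (SE, adjusted p = 0.0207), while 1 fell, Sam-S by 0.22 ± 0.07 (SE, adjusted p = 0.0261). Eip55E, the step after Cbs, was at -0.13 there and did not pass the threshold, and whether the 2 genes differ in their change was not tested.

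Eip71CD was the most abundant of the 5 genes and varied little. It stood at 73.2, 81.6 and 73.6 FPKM in 20E at 9 h and at 76.1, 59.2 and 62.3 FPKM in 20E at 4 h. In insulin the libraries were at 77.2, 89.6 and 81.2 FPKM at 9 h and at 90.9, 68.2 and 76.1 FPKM at 4 h. Without hormone they were at 82.5, 62.8 and 67.6 FPKM, and in uncultured discs at 58.8, 58.5 and 54.9 FPKM. Uncultured discs held the lowest libraries, and the 5 culture groups overlapped as neighbours in order of their means. The highest group mean was 1.44 times the lowest.

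All 3 uncultured libraries of Eip71CD lay below every cultured library. Against uncultured discs, ranges were apart for 73.7% of all genes in 20E at 9 h, 70.6% in 20E at 4 h, 71.4% in insulin at 9 h and 60.7% in insulin at 4 h. The change against uncultured discs was 0.40 ± 0.12 in 20E at 9 h (SE, adjusted p = 0.00648), 0.52 ± 0.12 in insulin at 9 h (SE, adjusted p = 0.00114) and 0.43 ± 0.12 in insulin at 4 h (SE, adjusted p = 0.00598). Those comparisons called 71.3%, 67.6% and 52.4% of all genes, in the same order. In 20E at 4 h it was 0.19 ± 0.12 (SE, adjusted p = 0.169), a result that passed with quantile normalization (0.29, adjusted p = 0.0454). Culture without hormone gave 0.29 ± 0.12 (SE, adjusted p = 0.0356). The last call was lost without each uncultured library in turn (adjusted p = 0.0564 to 0.0988), without no hormone replicate 1 (0.18, adjusted p = 0.184), without both libraries with gut transcripts (adjusted p = 0.213) and with no filter (adjusted p = 0.0561).

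Between hormones Eip71CD differed by -0.25 ± 0.12 at 4 h (SE, adjusted p = 0.0842), 20E minus insulin, and by -0.12 ± 0.12 at 9 h (SE, adjusted p = 0.425). From 4 h to 9 h in 20E it changed by 0.21 ± 0.12 (SE, adjusted p = 0.207; 0.0442 with array weights). The difference at 4 h passed the threshold with array weights (adjusted p = 0.00512), without 20E at 4 h replicate 1 (-0.35, adjusted p = 0.0218) and without insulin at 4 h replicate 2 (-0.34, adjusted p = 0.0308).

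The spread of Eip71CD followed the replicate numbers within each culture time. At 4 h replicate 1 was highest and replicate 2 lowest in all 3 groups, and at 9 h replicate 2 was highest and replicate 1 lowest in both. That order was partly shared: in Eip63E and in the sum of the myoblast markers, replicate 1 was also highest in every 4 h group. At 9 h replicate 2 was likewise highest in both groups for each. The part of myoblast transcripts in this pattern was not tested. With the groups of 1 culture time fitted alone and the number as a block, a fit chosen after seeing the data, all 4 differences of Eip71CD at matched times passed the threshold at the same sizes. They were -0.25 (adjusted p = 0.000434) for 20E minus insulin at 4 h, -0.12 (adjusted p = 0.0446) for 20E minus insulin at 9 h, 0.14 (adjusted p = 0.00432) for insulin at 4 h minus no hormone, and -0.11 (adjusted p = 0.0264) for 20E at 4 h minus no hormone. The labels do not say that a number marks a shared day or batch. Over all tested genes, same-numbered libraries of one time did not deviate together throughout: r was 0.188, 0.052 and 0.004 for replicates 1 to 3 between 20E and insulin at 4 h, and -0.109, 0.171 and 0.05 between them at 9 h. The fit of all 18 libraries without the block is therefore the one reported elsewhere, and for Eip71CD the calls at matched times depend on that choice.

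The thioredoxin system supplies the electrons that methionine sulfoxide reductases use. Of 8 list entries 7 were matched and 3 besides Eip71CD were tested, with SelR, the methionine sulfoxide reductase B gene, not analysed here. Trx-2, the cytosolic thioredoxin, fell by 0.63 ± 0.05 without hormone against uncultured discs and rose by 0.39 ± 0.05 in insulin at 4 h against no hormone (SE). Trxr-1, the thioredoxin reductase, fell by 0.60 ± 0.06 and rose by 0.37 ± 0.06 in the same comparisons (SE). With 20E for 4 h Trx-2 fell, against no hormone, by 0.23 ± 0.05 (SE, adjusted p = 0.00402), and Trxr-1 stood at -0.07 ± 0.06 (SE, adjusted p = 0.433). The third tested gene, CG5021, stood at 0.15 ± 0.05 with culture, -0.20 ± 0.05 in insulin and -0.02 ± 0.05 in 20E (SE), with a call in the first 2. Eip71CD thus lay above uncultured discs in culture where both thioredoxin system genes lay below them.

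Eip63E varied least. It stood at 36.0, 36.8 and 34.3 FPKM in 20E at 9 h, 37.7, 34.9 and 34.2 FPKM in 20E at 4 h, 33.5, 37.9 and 35.3 FPKM in insulin at 9 h, and 34.2, 27.3 and 31.1 FPKM in insulin at 4 h. Without hormone the libraries were at 36.8, 32.3 and 32.0 FPKM, and in uncultured discs at 28.4, 28.7 and 27.8 FPKM. All 5 pairs of neighbours in the order of group means overlapped, and the highest group mean was 1.26 times the lowest. The range over all 18 libraries was 27.3 to 37.9 FPKM.

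Within that range Eip63E was higher than in uncultured discs by 0.32 ± 0.07 in 20E at 9 h (SE, adjusted p = 0.00118), 0.32 ± 0.07 in 20E at 4 h (SE, adjusted p = 0.00145), 0.32 ± 0.07 in insulin at 9 h (SE, adjusted p = 0.00153) and 0.24 ± 0.07 without hormone (SE, adjusted p = 0.00881). For 20E at 4 h the background is 67.3% of genes. In insulin at 4 h the difference was 0.11 ± 0.07 (SE, adjusted p = 0.209), which passed without insulin at 4 h replicate 2 (0.20, adjusted p = 0.0282) and with array weights (adjusted p = 0.0428). The call without hormone was lost without no hormone replicate 1 (0.18, adjusted p = 0.0516) and without both libraries with gut transcripts (adjusted p = 0.0708). Insulin at 4 h against no hormone gave -0.13 ± 0.07 (SE, adjusted p = 0.156), and -0.20 (adjusted p = 0.0294) without insulin at 4 h replicate 1.

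A small difference between hormones was called at 4 h, 0.20 ± 0.07 for 20E minus insulin (SE, adjusted p = 0.0288, 56.8% of all genes called), although the groups overlapped. At 9 h it was 0.01 ± 0.07 (SE, adjusted p = 0.95, 53.0% of all genes called). Eip63E also rose from 4 h to 9 h in insulin by 0.20 ± 0.07 (SE, adjusted p = 0.0387, 44.6% of all genes called). In 20E it stood at 0.00 ± 0.07 over the same interval (SE, adjusted p = 0.978, 22.9% of all genes called). Both comparisons use insulin at 4 h, where replicate 2 was lowest at 27.3 FPKM. Without that library they came to 0.12 (adjusted p = 0.162) and 0.12 (adjusted p = 0.199), a move of over 1.5 times, and they were lost without insulin at 4 h replicate 3 as well (adjusted p = 0.0518 and 0.0694). The difference between hormones was also lost without 20E at 4 h replicate 1 (adjusted p = 0.115) and when only these groups were fitted (adjusted p = 0.0985). The change with time was also lost without insulin at 9 h replicate 2 (adjusted p = 0.15) or 3 (adjusted p = 0.0731), when only these groups were fitted (adjusted p = 0.131) and with no filter (adjusted p = 0.0607).

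Cyclin Y, the partner that brings this kinase to the membrane, was as even as Eip63E. CycY averaged 63.4 FPKM in 20E at 9 h, 59.8 FPKM in 20E at 4 h, 55.4 FPKM in insulin at 9 h, 59.6 FPKM in insulin at 4 h, 54.9 FPKM without hormone and 55.7 FPKM in uncultured discs. It differed in 20E from insulin at 9 h by 0.19 ± 0.05 (SE, adjusted p = 0.00379). Against no hormone, 20E at 4 h left it at 0.12 ± 0.05 (SE, adjusted p = 0.0714). Insulin at 4 h left it at 0.12 ± 0.05 as well (SE, adjusted p = 0.0503). Between 20E and insulin at 4 h the difference was 0.00 ± 0.05 (SE, adjusted p = 0.947).

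Of the 12 genes on the kinase list all were matched and 10 besides Eip63E were tested. With 20E for 4 h, against no hormone, 3 rose and 1 fell (median 0.00, against -0.01 over all tested genes), while 15.7% of all genes rose and 15.0% fell. The rises were in the cell cycle kinases Cdk2 (0.36 ± 0.06), Cdk4 and Cdk1 (0.24 ± 0.06), and the fall was in Cdk7 (-0.38 ± 0.05, SE), the kinase of the general transcription factor that also activates other cyclin-dependent kinases. In insulin 4 of the 10 rose, Cdk1 the most (0.55 ± 0.06, SE), and 3 fell, where 30.3% of all genes rose and 27.6% fell. With culture alone Cdk1 fell by 1.05 ± 0.06 (SE), whereas Eip63E rose by 0.24.

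Eip63F-1 was low in all groups, and the authors' FPKM for it rest on few reads. At the estimated depth its libraries correspond to roughly 9.9 to 92.7 fragments if the shortest annotated transcript is taken, or 37.7 to 351 for the longest. It stood at 0.470, 0.692 and 0.932 FPKM in 20E at 9 h and at 0.606, 0.589 and 0.789 FPKM in 20E at 4 h. In insulin it stood at 2.46, 2.14 and 1.83 FPKM at 9 h and at 1.43, 1.74 and 1.19 FPKM at 4 h. Without hormone it was at 0.933, 1.30 and 1.38 FPKM. All 6 libraries in 20E lay below all 6 in insulin. At matched times the ranges of 20E and insulin were apart for 63.1% of all genes at 4 h and 58.0% at 9 h. Uncultured discs spread over 0.977, 4.27 and 1.66 FPKM, the highest value being that of replicate 2, the library with 12078 FPKM of gut transcripts.

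In descending order the means of Eip63F-1 ran uncultured, insulin at 9 h, insulin at 4 h, no hormone, 20E at 9 h, 20E at 4 h. Ranges of neighbours did not overlap between insulin at 9 h and 4 h (54.6% of all genes had ranges apart). Those of 20E at 9 h (at most 0.932 FPKM) and no hormone (at least 0.933 FPKM) were barely apart. That pair differs in culture time as well as hormone, and no share over all genes was computed for it. The change in insulin from 4 h to 9 h was 0.36 ± 0.26 (SE, adjusted p = 0.278), and 0.50 with array weights (adjusted p = 0.0367). At 9 h it averaged 0.698 ± 0.231 FPKM in 20E and 2.14 ± 0.311 FPKM in insulin (SD, n = 3 each), a ratio of 0.326. That difference was -0.89 ± 0.26 on the log2(FPKM + 1) scale (SE, adjusted p = 0.0089), and -1.52 with a pseudocount of 0.1. At 4 h it was -0.56 ± 0.26 (SE, adjusted p = 0.077), with no overlap between libraries, the same 63.1% background applying. The comparison at 4 h passed the threshold without uncultured replicate 2, a library outside it that enters the shared spread (adjusted p = 0.00596), and without uncultured replicate 1 (adjusted p = 0.032). It also passed when only these groups were fitted (adjusted p = 0.011) and with a pseudocount of 0.1 (-1.02, adjusted p = 0.035). Adjusted p over the settings that kept 3 libraries a group or left out the pair with gut transcripts ranged from 0.00573 to 0.139.

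Against uncultured discs Eip63F-1 was lower in 20E, by -0.84 ± 0.26 at 9 h (SE, adjusted p = 0.00849) and -0.87 ± 0.26 at 4 h (SE, adjusted p = 0.00771). With a pseudocount of 0.1 the values were -1.39 and -1.42. The size of that fall depends on uncultured replicate 2. Without that library, on the log2(FPKM + 1) scale, they were -0.44 (adjusted p = 0.0307) and -0.47 (adjusted p = 0.0254), and both calls were lost when only the groups compared were fitted (adjusted p = 0.0838 at 9 h and 0.077 at 4 h). Culture without hormone gave -0.46 ± 0.26 (SE, adjusted p = 0.119). Without uncultured replicate 1 that comparison was called as a fall (-0.77, adjusted p = 0.00859), as was insulin at 4 h against uncultured discs (-0.62, adjusted p = 0.0397), whereas insulin at 9 h was called higher than uncultured discs without replicate 2 (0.45, adjusted p = 0.0312; 0.05 and adjusted p = 0.879 with all libraries).

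Calmodulin (Cam), the ubiquitous calcium sensor with EF-hands, was far more abundant on the FPKM scale. It averaged 570 FPKM in 20E at 9 h, 599 FPKM in 20E at 4 h, 551 FPKM in insulin at 9 h, 658 FPKM in insulin at 4 h, 775 FPKM without hormone and 785 FPKM in uncultured discs. Cam fell by 0.37 ± 0.10 in 20E at 4 h against no hormone (SE, adjusted p = 0.0099). All 18 genes of the list were matched, 11 of them never met the filter, and 6 besides Eip63F-1 were tested. Against no hormone in 20E at 4 h 3 rose, CanB2, a calcineurin B subunit, the most (0.24 ± 0.05, SE), followed by the myosin light chains Mlc-c and sqh, and 1 fell, Cam. That is 4 of 6 changed, in a comparison in which 30.7% of all genes changed.

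Eip93F was close to 0 in every group. Its libraries were at 0.0452, 0.0935 and 0.0154 FPKM in 20E at 9 h, and at 0.0581, 0.0692 and 0.0234 FPKM in 20E at 4 h. In insulin they were at 0.0814, 0.156 and 0.0585 FPKM at 9 h and at 0.0487, 0.0129 and 0.0281 FPKM at 4 h. Without hormone they were at 0.0132, 0.0468 and 0.0324 FPKM, and in uncultured discs at 0.0315, 0.0321 and 0.00814 FPKM. No library was at exactly 0. At the estimated depth these values correspond to about 1.0 to 20.3 fragments for the shortest annotated transcript or 2.8 to 56.7 for the longest. All neighbours in the order of group means overlapped.

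When the filter on low values was removed, Eip93F gave 0.03 (95% interval -0.04 to 0.10, adjusted p = 0.693) in 20E at 4 h against no hormone. With a pseudocount of 0.1 the same comparison gave 0.19 (-0.26 to 0.65, adjusted p = 0.632). At this depth no response to 20E was detectable. In the fit without the filter 1 of 11 pairwise comparisons passed, insulin at 9 h against uncultured discs (0.10 ± 0.03, SE, adjusted p = 0.0202). It rests on the few fragments above, at 0.0585 to 0.156 FPKM in insulin at 9 h against 0.00814 to 0.0321 FPKM in uncultured discs, and gave 0.66 with a pseudocount of 0.1 (adjusted p = 0.0201). Salivary gland and fat body, where E93 is known to act at metamorphosis, had markers at or under 1.02 FPKM in these libraries. Whether that bears on the level of Eip93F was not tested.

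The transcription factors that act with or before E93 did move. Broad (br) and E93 mark successive stages of metamorphosis, and chinmo marks the larval state. In 20E at 4 h against no hormone br rose by 2.28 ± 0.20 (SE, adjusted p = 9.22e-07) and chinmo fell by 2.00 ± 0.29 (SE, adjusted p = 0.000102). Of the 17 list entries 15 were matched and 10 were tested, and 5 of the 10 rose and 4 fell (median 0.60, against -0.01 over all tested genes, of which 30.7% changed). The largest rise was in Eip75B and the largest fall in ftz-f1, the competence factor of the prepupal stage (-2.04 ± 0.10, SE). Kr-h1 and mamo were not analysed here. These genes had been reported for these libraries before the list was written, so the counts describe the setting and are no separate evidence.

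E93 is known to switch on autophagy and cell death genes in dying larval tissues. A list of 15 autophagy and cell death genes was fully matched, with 13 tested. It also holds the caspase inhibitor genes Diap1 and Diap2, so the counts mix genes that promote cell death with genes that restrain it. For 20E at 4 h against no hormone 6 rose and 1 fell (median 0.12, against -0.01 over all tested genes, of which 15.7% rose and 15.0% fell), with Eip93F at 0.0234 to 0.0692 FPKM in 20E and 0.0132 to 0.0468 FPKM without hormone. The rises were largest in the initiator caspase gene Dronc (0.97 ± 0.07), followed by hid (0.72 ± 0.06), and the fall was in the caspase inhibitor Diap2 (-0.36 ± 0.06, SE). In insulin 5 of the 13 rose and 5 fell against no hormone, where 30.3% of all genes rose and 27.6% fell. The largest rise was in the effector caspase gene Drice (0.70 ± 0.04) and the largest fall in Atg8a, a marker of autophagosomes (-0.74 ± 0.05, SE).

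**Figure D4:**
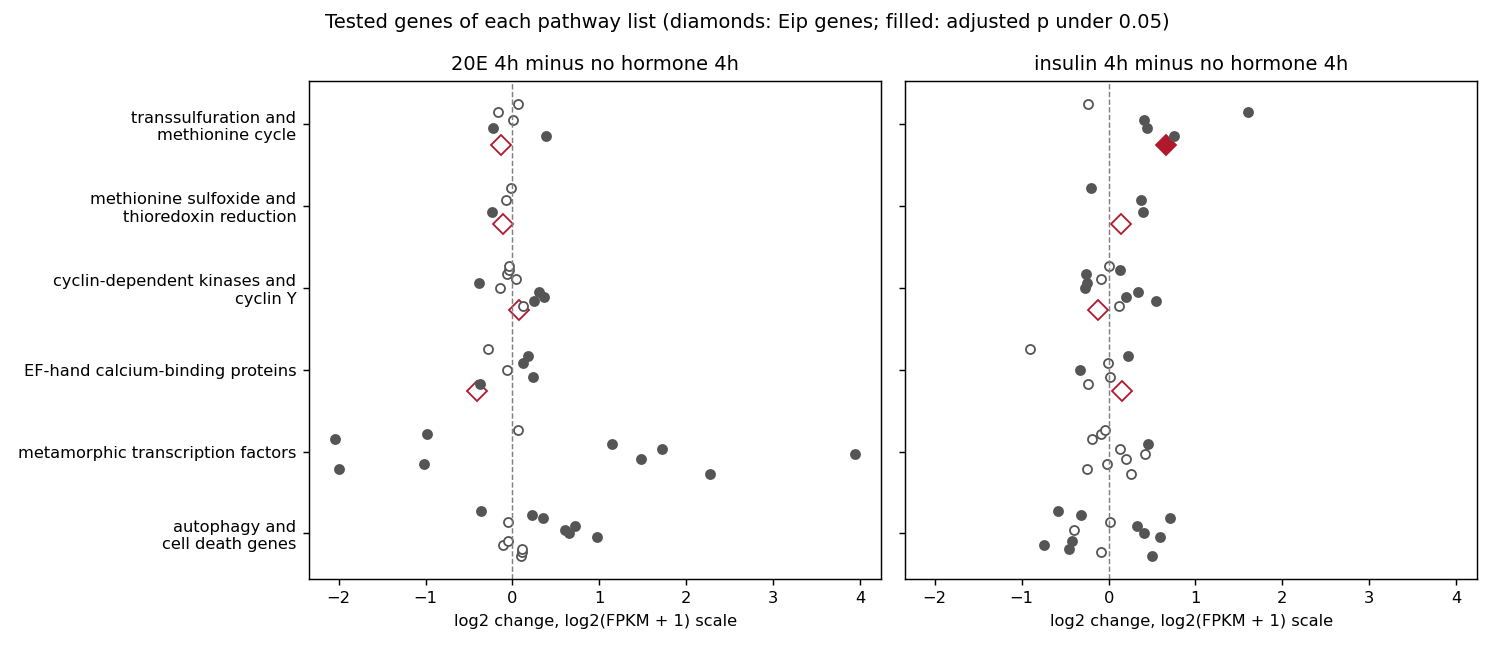
Change on the log2(FPKM + 1) scale of each tested gene of the 6 pathway lists in 20E at 4 h minus no hormone (left) and insulin at 4 h minus no hormone (right); diamonds are Eip genes, circles other list members, and filled symbols have an adjusted p under 0.05. No diamond is filled for 20E, and 1, Eip55E, is filled for insulin, among other filled genes of methionine metabolism. Both panels share the no hormone libraries.

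In none of the 4 tested genes did a difference between hormones in the change with time pass the threshold. The interaction, taken as the 9 h minus 4 h difference under 20E less the same difference under insulin, was 0.22 ± 0.11 for Eip55E (SE, adjusted p = 0.165), 0.13 ± 0.16 for Eip71CD (adjusted p = 0.604), -0.20 ± 0.10 for Eip63E (adjusted p = 0.182) and -0.33 ± 0.36 for Eip63F-1 (adjusted p = 0.538). The count by limma was 0 of 4, also at an unadjusted p under 0.05, against 26.5% of all genes called. Eip55E passed with array weights (0.22, adjusted p = 0.0321). Its adjusted p ranged from there to 0.234 over the settings that kept 3 libraries a group or left out the pair with gut transcripts. Eip93F, outside this fit, gave -0.09 ± 0.05 with no filter (SE, limma adjusted p = 0.227).

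The members did not follow one pattern over the 18 libraries. Pearson's r of log2(FPKM + 1) was -0.73 between Eip55E and Eip63E, 0.68 between Eip71CD and Eip63E, 0.67 between Eip55E and Eip63F-1, and -0.26 between Eip55E and Eip71CD. The libraries share groups, so these values describe group differences as much as libraries. Among tested genes with a mean of at least 5 FPKM, the gene most like Eip55E was Trx-2 (r = 0.97), followed by CG3420 and CG6907 (both 0.97). Trx-2 averaged 297 ± 16.0 FPKM in 20E at 9 h, 275 ± 3.63 FPKM in 20E at 4 h, 386 ± 26.3 FPKM in insulin at 9 h, 424 ± 22.2 FPKM in insulin at 4 h, 323 ± 14.3 FPKM without hormone and 498 ± 6.81 FPKM in uncultured discs (SD, n = 3 each).

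The genes most like Eip71CD were ome (r = 0.92), CG9812 (0.92) and CG32444 (0.89), and those most like Eip63E were CG5466 (0.94), CG17754 (0.92) and CG5112 (0.91). For Eip63F-1 the closest were CG32250 (0.85), CG9921 (0.82) and CG42379 (0.82). For Eip93F they were CG5708 (0.75), MED26 (0.75) and Drep-4 (0.74). Each set of 3 ranks highest among 7003 or 7004 correlations over the same 18 libraries, and the low counts of the last 2 members limit theirs.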

How the data were processed

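RNA sequencing of wing discs was analysed in 18 libraries (6 groups of 3, grouped by sample title). The authors deposited 1 table of FPKM per replicate. The submitters' processing notes name cutadapt, TopHat2, Cufflinks and build BDGP5, without roles, and the annotation release is not given in the sources used here. The 8524 of 15602 genes that reached 1 FPKM in 3 or more libraries were fitted as log2(FPKM + 1) with limma 3.58.1 in R 4.3.3 (group as the only term, all 18 libraries, eBayes with trend), and two-sided p-values were adjusted (Benjamini-Hochberg) separately for the 12 comparisons. The fit was tested on simulated data. Replicates are biological per the series' design text.

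Depth was estimated, since the table holds no counts: low FPKM of single-transcript genes over a minimum length of 1000 nt lay within 0.1 of a whole fragment for 85.6% to 92.2% of values, against 20% by chance, in a fit that favours this share. Estimated fragments are approximate and entered no test.

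The 5 genes, the 6 pathway lists and the marker lists were chosen with earlier results of these data known. For each gene the 3 tested genes with the highest Pearson r were named, and list members by largest change or as partners of the 5. Neighbouring genes were named after their values were seen. Positions come from Ensembl release 115 (BDGP6.54). No sequence was used. Alternatives covered the pseudocount (0.1), the filter (none, or a mean of at least 5 FPKM), scaling, trend, weights, a replicate block, only the groups compared, and each library left out. Leaving out the pair of libraries with the most gut transcripts, fitting Eip93F with no filter and a pseudocount of 0.1, and the block within a culture time were chosen after seeing the data. Figures were drawn with matplotlib 3.10.9.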

Additional observations from a re-analysis of the deposited data

How the results depend on the processing

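For the 4 tested Eip genes, 1360 changes were recomputed over 12 comparisons and all alternatives. Of these 1307 kept their side of the threshold, 21 lost a call and 32 gained one; none reversed a call, and 23 changed sign with no call before or after. The Eip55E calls kept their direction and side throughout. Median-ratio rescaling factors lay between 0.987 and 1.01. The mean of at least 5 FPKM leaves out Eip63F-1, and Eip93F was outside every filtered fit. Counts over all genes stayed within 1.5 times in 340 of 343 cases. The exceptions were 20E from 4 h to 9 h (1951 genes), with 3606 under array weights and 1127 when only the groups compared were fitted, and the interaction (2261), with 3719 under array weights. The cause was not tested. Leaving out 1 library moved the count for 20E at 4 h against no hormone (2621) to between 1979 and 2733. With the replicate number as a block that count was 2734, and the block over all groups changed no call of the 4 genes. As a block within the 4 h cultures alone it gave 2870 (2415 for those cultures with no block) and made all 3 differences of Eip71CD pass, as it did at 9 h; it changed no call of the other 3 genes relative to the same libraries without the block, apart from Eip63E in 20E at 4 h against insulin (adjusted p = 0.0141 with it, 0.0813 without). Over all genes same-numbered libraries did not deviate together (median r = -0.001 over 45 pairs, 8 of them over 0.1), and 4 of 18 libraries correlated best with their own number. FPKM without counts gives no counting interval, which limits Eip63F-1 and Eip93F most.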

Other observations

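Eip63E lies between a pair of genes that rose in 20E at 4 h against no hormone. ImpE2, an ecdysone-inducible gene of imaginal discs, lies 3069 bases before the start of Eip63E on the other strand, and CG10359 lies 1670 bases beyond its end on the same strand. In 20E at 4 h against no hormone ImpE2 rose by 4.85 ± 0.75 (SE, limma adjusted p = 0.000201), at 129 to 430.1 FPKM in 20E and 2.35 to 19.4 FPKM without hormone. CG10359 rose by 1.60 ± 0.13 (SE, adjusted p = 2.75e-07), at 67.7 to 73.7 FPKM in 20E and 20.3 to 24.8 FPKM without hormone. CG10359 also rose in insulin at 4 h against no hormone (0.93 ± 0.13, SE, adjusted p = 1.55e-05), and at 9 h it stood at -0.08 ± 0.13 for 20E minus insulin (SE, adjusted p = 0.648). ImpE2 stood at 0.54 ± 0.75 in insulin at 4 h (SE, adjusted p = 0.561) and was higher in 20E than in insulin at 9 h by 6.72 ± 0.75 (SE, adjusted p = 4.02e-06). In 20E at 4 h Eip63E stood at 0.08 ± 0.07 (SE, adjusted p = 0.477). These neighbours were picked out after their values were seen.

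Other neighbours changed in culture without hormone against uncultured discs, as 70.6% of all genes did. CG10866, 442 bases before Eip63F-1 on the same strand, rose by 0.91 ± 0.05 (SE, adjusted p = 1.53e-09), and mge, 41 bases beyond its end, fell by 0.93 ± 0.04 (SE, adjusted p = 1.46e-10). Eip63F-1 stood at -0.46 ± 0.26 in that comparison (SE, adjusted p = 0.119). Eip71CD rose by 0.29 ± 0.12 (SE, limma adjusted p = 0.0356), a call lost in several settings given above. Beside it gdl rose by 0.51 ± 0.19 (SE, adjusted p = 0.0245) in the same comparison. The means of gdl were 3.85 FPKM without hormone and 2.41 FPKM in uncultured discs, with overlapping libraries. The other tested neighbours of Eip71CD did not move one way. Of these gdl-ORF39, on the same strand, rose by 1.19 ± 0.20 (SE, adjusted p = 8.02e-05). CG7841, on the other strand, fell by 1.41 ± 0.21 (SE, adjusted p = 3.05e-05). The change of mex1 was -0.69 ± 0.71 (SE, adjusted p = 0.397). Differences between an Eip gene and its neighbours were not tested.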
